A study of Mus musculus with 17 samples.

Results

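Cluster 6 is 1 of 9 clusters into which the single-cell RNA-seq (scRNA-seq) of mouse brain was divided, and the study called its cells microglia. It is described here by its 2 mean expression profiles of 18 in the table, 1 from the 6-OHDA-induced PD model (6-OHDA) and 1 from the NDST3-treated PD model (6-OHDA+NDST3). Of 26646 genes listed, 22891 had a mean above 0 in cluster 6 in at least 1 group, and 6595 were detected, with a mean above 0.1 on the natural log (ln) scale in either group. Each value is a mean over the cells of ln of 1 plus the count scaled to a fixed total per cell. Differences between groups are therefore differences of ln means, not fold changes.

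The mice were adult wild-type (WT) animals of the ICR strain. Both groups received the neurotoxin 6-hydroxydopamine (6-OHDA) on 1 side of the brain, in the substantia nigra. The 6-OHDA+NDST3 group then received an adeno-associated virus that drives human NDST3, a heparan sulfate modifying enzyme, from the CMV promoter, which is not specific to a cell type. By the study's methods the 6-OHDA group received saline, so the virus and NDST3 cannot be told apart in this comparison. Whole-tissue RNA-seq covered 2 sham libraries, 1 6-OHDA library and 2 6-OHDA+NDST3 libraries. The scRNA-seq had 1 library per group, so no test between its groups was possible, and the sham library of scRNA-seq was not analysed here.

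Microglia are the resident macrophages of the brain and depend on CSF1 receptor and TGF-beta signalling. In healthy tissue they carry purinergic receptors such as P2ry12 and present little antigen on MHC class II. After injury they secrete chemokines, take up debris and can raise antigen presentation genes, while enzymatic dissociation of tissue is known to induce immediate early and stress genes in them.

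The libraries stood apart by sex-linked genes. The study's methods give female mice, yet transcripts of the Y chromosome were present in several libraries. In cluster 6 the mean of the Y-linked helicase gene Ddx3y was 0 in 6-OHDA and 0.11 in 6-OHDA+NDST3. The mean of the Y-linked demethylase gene Uty was 0.09 in 6-OHDA+NDST3, while its highest mean in any other cluster of 6-OHDA was 0.0028. Xist, the RNA of the inactive X chromosome, was at 2.41 and 2.10. Thus RNA of the Y chromosome was seen in 1 scRNA-seq group and hardly in the other, and Xist was high in both. In whole tissue, Ddx3y lay between 69.2 and 90.1 CPM (counts scaled to library size with TMM factors) in all 5 libraries. Sex and treatment cannot be told apart in the scRNA-seq comparison, and the part of sex in the differences below was not tested.

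RNA that is abundant in other cells also differed between the scRNA-seq libraries. Igkc, the antibody light chain of B cells, was at 0.01 in 6-OHDA and 0.13 in 6-OHDA+NDST3 in cluster 6. Ttr, the transthyretin of choroid plexus, was at 0.32 and 0.13. The table gives neither the number of cells nor the depth behind each mean, and neither was used here.

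The markers of microglia were high in cluster 6 in both groups. P2ry12 (chromosome 3, 59216271 to 59262985, GRCm38), a receptor for ADP, had a mean of 1.86 in 6-OHDA and 1.74 in 6-OHDA+NDST3, against at most 0.43 and 0.47 in the other clusters. Tmem119 (chromosome 5, 113793729 to 113800396), a microglial membrane protein, had a mean of 1.53 in both groups, against at most 0.32 and 0.46. Siglech, a sialic acid binding receptor, was at 1.38 and 1.24. Sall1, a transcription factor of microglial identity, was lower, at 0.43 and 0.42, but its other clusters did not pass 0.13. All 6 markers given for the cluster were highest in cluster 6 in both groups, among them the chemokine genes Ccl4 and Ccl3. These 6 were chosen as markers of cluster 6, so their rank is a description and not a test of its name. Of the 7 markers the study used, 4 were highest there. The exceptions were Aif1, Cd68 and Fcrls, each with a higher mean in cluster 3 in 6-OHDA.

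Markers of other cell types were low. None of 8 genes of border-associated macrophages and none of 7 monocyte genes was detected, with summed means of 0.20 and 0.15 and of 0.05 and 0.08. Of the neuron genes 0 of 8 were detected, of the dendritic cell genes 0 of 6, of the T or NK cell genes 0 of 7, of the oligodendrocyte precursor genes 0 of 5 and of the mural cell or fibroblast genes 0 of 7. Of oligodendrocyte genes 3 of 7 were detected, with the list summing to 0.49 and 0.52, and of endothelial genes 3 of 6, summing to 0.62 and 0.46. The neutrophil, B cell and astrocyte lists each had 1 detected gene. Csf3r, the G-CSF receptor of a neutrophil list, was at 1.48 and 1.42 while the whole list of 7 summed to 1.51 and 1.44. Ighm was at 0.44 and 0.48 and Slc1a3, a glutamate transporter gene of astrocytes, was at 0.54 and 0.71.

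**Figure D1:**
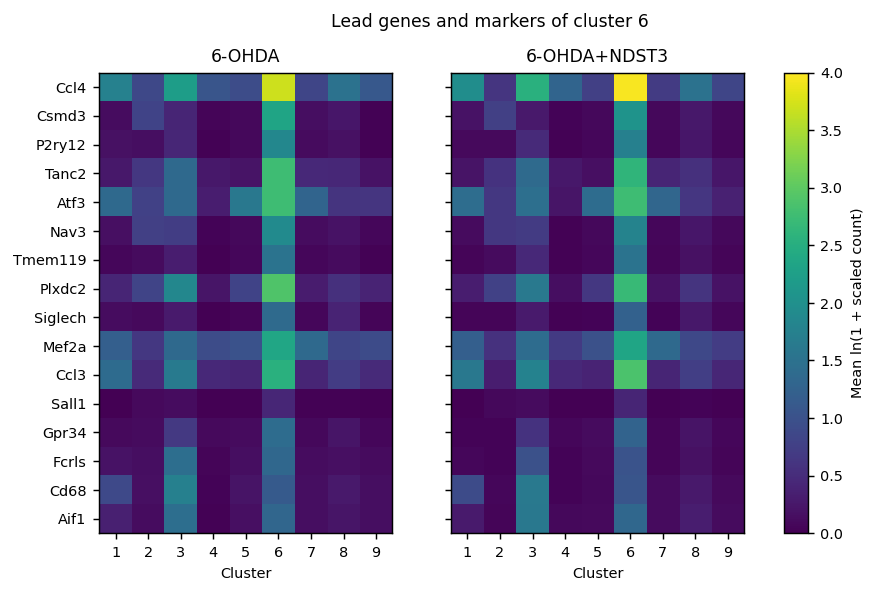
Mean ln(1 + scaled count) of lead genes and markers (rows) in the 9 clusters (columns), with 1 panel per group and colour for the mean. Cluster 6 is the brightest column for Ccl4, P2ry12 and Tmem119 in both panels, while Cd68 is brighter in cluster 3, at 1.75 against 1.13 in 6-OHDA.

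A lead gene was defined as a gene whose mean in cluster 6 exceeded its highest mean in the other 8 clusters by at least 0.5 in both groups. There were 58, or 0.879% of the detected genes. These genes define the cluster, so their lead is a description. Just inside the rule were Ube2f and Mylip, with leads of 0.51 and 0.50, and just outside were Daglb and Acer3, both at 0.50 when rounded. The largest lead belonged to Ccl4, which encodes a chemokine that attracts monocytes and T cells, at 3.70 in 6-OHDA and 3.96 in 6-OHDA+NDST3, against at most 2.23 and 2.54 elsewhere. Csmd3, a large membrane protein with CUB and Sushi domains, followed at 2.33 and 2.05. Tanc2, a scaffold protein gene, was at 2.76 and 2.62. Atf3, a stress-induced transcription factor, was at 2.75 and 2.76. The smaller of the 2 leads was 1.43 for Ccl4, 1.30 for Csmd3, 1.27 for P2ry12, 1.23 for Tanc2 and 1.15 for Atf3. Nav3, Tmem119, Plxdc2, Siglech and Mef2a, a transcription factor of the myocyte enhancer family, completed the 10 largest, with leads from 1.10 to 0.94.

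Across the 6595 detected genes, cluster 3 was the most like cluster 6, with a Pearson r of 0.88 in 6-OHDA and 0.89 in 6-OHDA+NDST3. Cluster 1 followed at 0.77 in both groups and cluster 8 at 0.73 and 0.75. The genes are not independent replicates, and the profiles of a group come from 1 library. Between the groups, cluster 6 correlated with itself at 0.99.

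Most genes of the microglia identity list were higher in cluster 6 than in cluster 3. Of 18 members, 16 had a higher mean in cluster 6 than in cluster 3 in both groups, and 15 were highest in cluster 6 of all clusters. Of all detected genes, 51.8% were higher than in cluster 3 in both groups and 14.8% were highest in cluster 6. The disease-associated list went the other way, with 18 of 20 detected members lower in cluster 6 than in cluster 3 in both groups, against 40.4% of all detected genes. Apoe, a lipid carrier, was at 4.23 in cluster 6 and 6.44 in cluster 3 in 6-OHDA. Spp1, the secreted phosphoprotein osteopontin, was at 0.77 and 2.89, and Gpnmb, a glycoprotein of lipid-laden phagocytes, was at 0.14 and 1.53. Of the transcription factor and TGF-beta list, 17 of 18 members were higher in cluster 6 than in cluster 3 in both groups. The share of all detected genes was the same 51.8%. Tgfbr1, a TGF-beta receptor, was at 2.50 in cluster 6 and 1.85 in cluster 3 in 6-OHDA. Lead genes of the identity list were P2ry12, Tmem119, Siglech, Cx3cr1, Gpr34, Csf1r, Cst3 and Tgfbr1. Those of the transcription factor list were Mef2a, Runx1 and Tgfbr1. Sall1, in both lists, was a marker given for the cluster. Lead genes exceed cluster 3 by definition, so both counts are a description and not a test.

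With NDST3, the largest differences in cluster 6 were those of antigen presentation genes, which were higher, and of heat shock genes, which were lower. A difference of at least 0.2 was reached by 27 genes that were higher, 0.409% of the detected genes, and by 19 that were lower, 0.288%. The median difference was 0.0035 and 85.6% of the detected genes differed by less than 0.05. Just inside the rule were Ccrl2 and Cd300lf at 0.21 and Ctsd at -0.21, and just outside were Hif1a and B2m, both at 0.20 when rounded, and Plxdc2 at -0.19. By the same rule the other clusters had between 20 genes higher with 17 lower, in cluster 7, and 254 higher with 348 lower, in cluster 9.

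**Figure D2:**
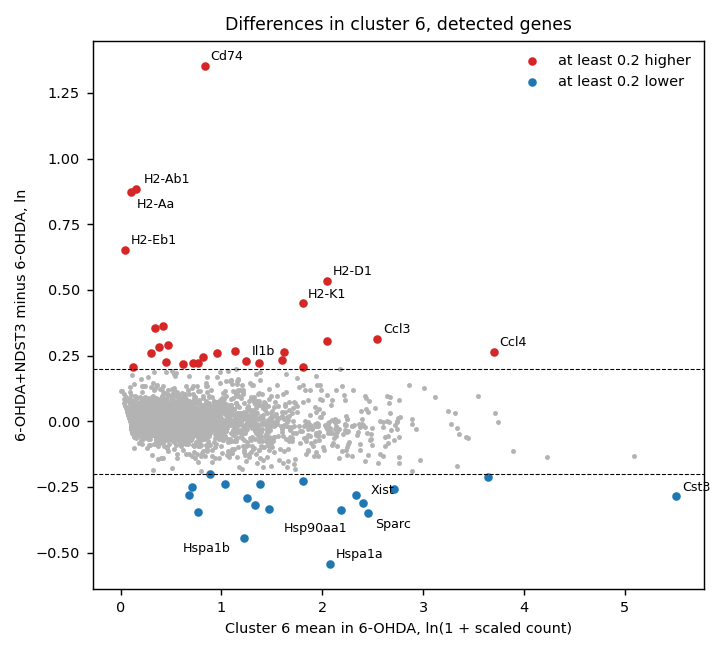
Difference between 6-OHDA+NDST3 and 6-OHDA (vertical axis, ln) against the mean in 6-OHDA (horizontal axis, ln) for the genes detected in cluster 6, 1 point per gene, with dashed lines at the rule of 0.2. Cd74 is highest at 1.35 and Hspa1a lowest at -0.54.

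MHC class II molecules display peptides to helper T cells, and Cd74 is the chain that guides their assembly. In cluster 6, Cd74 had a mean of 0.84 in 6-OHDA and 2.19 in 6-OHDA+NDST3. H2-Ab1 was at 0.15 and 1.04. H2-Aa was at 0.10 and 0.98. These chains were near the detection rule in 6-OHDA and well above it in 6-OHDA+NDST3. H2-Eb1 was at 0.05 and 0.70, and H2-DMa, which helps to load peptides, was at 0.30 and 0.56. Of the 7 genes listed, 6 were detected and all 6 were higher with NDST3, 5 of them by at least 0.2. H2-Eb1 passed the detection rule only in 6-OHDA+NDST3, so it could only be higher there. It is counted in these numbers and in the median. The median difference was 0.76, against 0.0035 over all detected genes. Ciita, the master regulator of class II transcription, was at 0.01 and 0.07 and was not detected by the rule.

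The class II difference was not particular to cluster 6. H2-Aa was higher with NDST3 in all 9 clusters, by 0.12 to 1.81 in the other 8. In cluster 3, Cd74 was at 1.83 and 3.87. In 6-OHDA+NDST3 the mean of H2-Aa was 0.98 in cluster 6. It was lowest in cluster 4, at 0.23, and highest in cluster 9. The part of free RNA and of the dendritic cell genes, which summed to 0.12 and 0.13 in cluster 6, was not tested.

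MHC class I genes, which display peptides to cytotoxic T cells, were higher as well. All 11 members were detected and all 11 were higher with NDST3, 4 of them by at least 0.2, with a median of 0.19. Of all detected genes, 55.9% were higher. The class I difference was not particular to cluster 6, as the median of these genes was 0.28 in cluster 3 and 0.16 in cluster 4. H2-D1 was at 2.05 and 2.58, and H2-K1 at 1.81 and 2.26. B2m, the light chain shared by class I molecules, was at 2.18 and 2.38. H2-Q7 was at 0.42 and 0.78 and H2-Q6, outside the list, at 0.34 and 0.69. The class I genes are close paralogs whose reads can be shared, so their single values are uncertain. Cd86, a costimulatory ligand, was at 2.05 and 2.35. All 8 detected interferon-stimulated genes were also higher, with a median of 0.07, and none by 0.2 or more. In cluster 3 the median of these genes was 0.15.

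The promoters of class II genes are known to hold an X box and a Y box. The promoters of H2-Aa, H2-Eb1 and H2-DMb1 are shown from the RefSeq promoter table (GRCm38.p6) for these boxes, beside those of Hspa1a and Hspa1b, whose differences had the opposite sign. Each line gives 120 bases that end just before the start of the gene, 5′ to 3′ on the strand of the gene. Capitals mark CTAGNAAC (searched as part of an X box), CTGATTGG (a Y box), its core GATTGG in H2-DMb1 and, in the Hspa1 genes, GAANNTTC (a heat shock element).
H2-Aa: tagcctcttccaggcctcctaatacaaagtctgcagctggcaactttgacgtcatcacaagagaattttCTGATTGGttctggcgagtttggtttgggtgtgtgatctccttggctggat
H2-Eb1: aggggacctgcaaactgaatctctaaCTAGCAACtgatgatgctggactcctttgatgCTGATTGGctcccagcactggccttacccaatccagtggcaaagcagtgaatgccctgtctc
H2-DMb1: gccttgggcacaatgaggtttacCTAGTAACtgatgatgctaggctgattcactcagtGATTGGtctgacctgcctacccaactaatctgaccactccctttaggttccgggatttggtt
Hspa1a: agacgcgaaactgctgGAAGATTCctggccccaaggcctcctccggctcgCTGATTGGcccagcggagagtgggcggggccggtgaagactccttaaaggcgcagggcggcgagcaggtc
Hspa1b: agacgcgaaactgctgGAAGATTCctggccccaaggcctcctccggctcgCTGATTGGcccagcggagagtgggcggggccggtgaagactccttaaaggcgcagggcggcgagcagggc

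These stretches lie on chromosome 17 at 34287824-34287943 (minus strand), 34305747-34305866 (plus), 34153071-34153190 (plus), 34972157-34972276 (minus) and 34959239-34959358 (minus). On either strand of the 250 bases before the start, CTGATTGG was present in 3.83% of all 32851 promoters, GATTGG, which CTGATTGG contains, in 14.6%, GAANNTTC in 6.69% and CTAGNAAC in 3.06%. Of the 27 genes that were higher, 20 had a promoter in the table and 6 of these held CTGATTGG, namely H2-Aa, H2-D1, H2-Eb1, H2-Q6, H2-Q7 and H2-T23. Of the 19 that were lower, 15 had one and 3 held it, namely Hspa1a, Hspa1b and Spp1. GAANNTTC was in 1 of the 20, that of H2-Aa, and in 2 of the 15, those of Hspa1a and Hspa1b. CTAGNAAC was in 1 of the 20, that of H2-Eb1, and in 0 of the 15. The printed stretch of H2-Aa holds ctggcaac, which differs from these letters at 1 base and was neither marked nor counted. Lack of an exact match is thus not lack of an X box. H2-DMb1 is not among the 27. The Y box was thus in promoters of genes of both directions. A match is a description of letters, not evidence of binding.

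Heat shock genes were the largest group among the genes lower with NDST3. Hspa1a, an inducible chaperone of the HSP70 family, was at 2.08 in 6-OHDA and 1.53 in 6-OHDA+NDST3. Hspa1b, its near-identical copy, was at 1.23 and 0.79. The promoters of the pair differ at 3 of 250 bases, and reads of the copies can be shared, so each value is uncertain. Hsp90aa1, an inducible HSP90, was at 2.19 and 1.85, and Hsph1, a nucleotide exchange factor of HSP70, at 0.68 and 0.40. Of 16 heat shock genes, a list made after their values were seen, 14 were lower and 5 by at least 0.2, with a median of -0.14. Of all detected genes, 44.1% were lower and 0.288% by at least 0.2. Because the list followed from these values, its counts are a description. The median of this list was below 0 in the other 8 clusters as well, from -0.12 to -0.03. Of the immediate early genes, Atf3 was at 2.75 and 2.76, Junb at 3.33 and 3.30 and Jun at 3.33 and 3.16. Over the immediate early and stress list, 12 of 28 members were higher and 16 lower, with a median of -0.01.

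Identity genes were lower in cluster 6 with NDST3, most of them slightly. All 18 differences were below 0, with a median of -0.10, and 3 passed -0.2, whereas 55.9% of all detected genes were above 0. The median of this list ran from -0.07 to 0.0057 in the other 8 clusters, with -0.05 in cluster 3 and -0.07 in cluster 1. Sparc, a matrix protein secreted by microglia, was at 2.45 and 2.10. Fcrls, an Fc receptor-like gene, was at 1.34 and 1.02. Cst3, a cysteine protease inhibitor and the gene with the highest mean in cluster 6, was at 5.51 and 5.22. P2ry12 differed by -0.11 and Siglech by -0.14. The other lower genes included Spp1, at 0.77 and 0.42, Lyz2, a lysozyme, at 1.47 and 1.14, and Fgf13, at 1.25 and 0.96.

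Of the 3 inflammatory markers that the study named, Aif1 differed little and Cd68 and Itgam were slightly lower. Aif1, a calcium-binding protein of microglia, was at 1.32 and 1.34. Cd68, a lysosomal protein, was at 1.13 and 1.05, and Itgam, the CD11b integrin chain, was at 1.06 and 0.93. None reached 0.2.

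Of the 10 chemokine genes detected, 7 were higher and 3 lower with NDST3, where 55.9% of all detected genes were higher. The median of the 10 was 0.12 in cluster 6 and 0.14 in cluster 3. Ccl3, which attracts monocytes as Ccl4 does, was at 2.55 and 2.86. Ccl4 was at 3.70 and 3.96, whereas Cxcl2, which attracts neutrophils, was at 0.71 and 0.46. Among cytokine genes, Il1b was at 1.24 and 1.47, Il1a at 1.75 and 1.92 and Tnf at 1.37 and 1.48, while the NF-kB inhibitor gene Nfkbia was at 2.76 and 2.60. The median of the cytokine and NF-kB list was 0.01. Complement genes were almost level, with C1qa at 3.71 and 3.75. Sensing receptors had a median of 0.02 and proliferation genes one of 0.01, with 4 of 16 detected. Mki67, a marker of cycling cells, was at 0.02 in both groups.

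**Figure D3:**
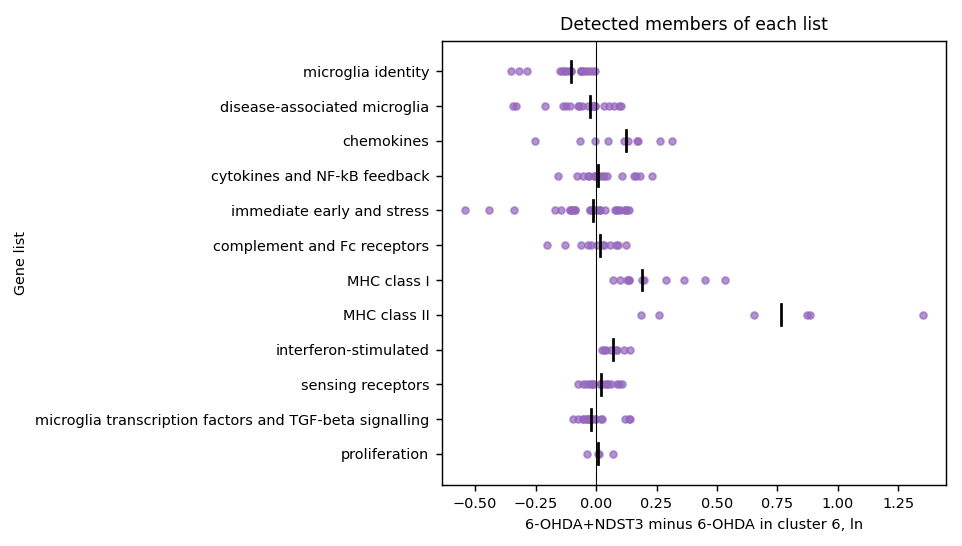
Difference between 6-OHDA+NDST3 and 6-OHDA in cluster 6 (horizontal axis, ln) for the detected members of 12 gene lists (rows), with 1 point per gene and a bar at the median. The medians are highest for MHC class II, at 0.76, and MHC class I, at 0.19, and lowest for microglia identity, at -0.10.

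For 9 of the 46 genes past the rule, the difference in cluster 6 lay beyond those of all other 8 clusters by at least 0.1. Of the 16 heat shock genes, listed after their values were seen, 4 were among them. Hspa1b was lower by 0.44 in cluster 6 and by at most 0.19 elsewhere, and Hspa1a by 0.54 and at most 0.30. Il1b was the clearest on the other side, higher by 0.23 in cluster 6 and between -0.15 and 0.0047 elsewhere. The remaining 6 were Mir99ahg, a noncoding host RNA, Hsph1, Csmd3, Hsp90aa1, Ccrl2 and Ccl3. Without cluster 3 among the others, a choice made after seeing the data, the count was 20.

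**Figure D4:**
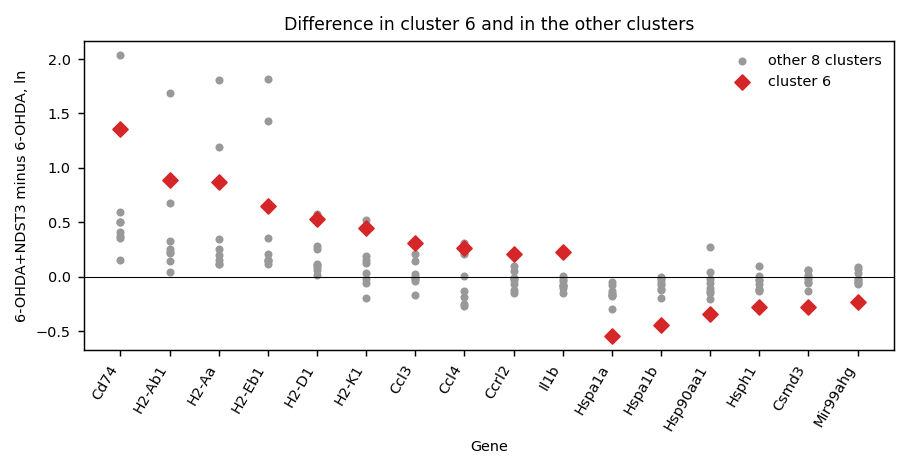
Difference between 6-OHDA+NDST3 and 6-OHDA (vertical axis, ln) for 16 genes, with a red diamond for cluster 6 and grey points for the other 8 clusters. The diamond lies inside the grey range for Cd74, where another cluster reaches 2.04, and below it for Hspa1a, at -0.54.

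The lead genes of cluster 6 were also measured by whole-tissue RNA-seq in 5 libraries, 1 of them from 6-OHDA, with totals between 51003699 and 70533326 counts. There, fewer cells of a type and less RNA per cell cannot be told apart. Of the 58 lead genes, 32 rose and 6 fell in 6-OHDA against sham (edgeR quasi-likelihood test, Benjamini-Hochberg adjusted p under 0.05), where 18.8% and 17.1% of 19300 tested genes did so. The single 6-OHDA library was assumed to vary like the other groups, and the lesion and that library cannot be told apart. Without sham replicate 1, and likewise without sham replicate 2, 0 of the 58 lead genes passed. P2ry12 was at 29.2 and 27.2 CPM in sham, 66.4 in 6-OHDA and 40.8 and 52.1 in 6-OHDA+NDST3. The log2 fold change to sham was 1.23 ± 0.17 (SE; edgeR adjusted p = 0.0096). For P2ry12, all 3 libraries of lesioned mice lay above the sham libraries.

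Ccl3 had the largest rise among the lead genes, with 0.777 and 0.406 CPM in sham, 12.6 in 6-OHDA and 3.54 and 5.70 in 6-OHDA+NDST3. Its log2 fold change to sham was 4.43 ± 0.48 (SE; edgeR adjusted p = 0.0082). Ccl4 rose by 3.82 on the log2 scale, with 6.02 without sham replicate 1 and 2.93 without sham replicate 2, and its edgeR adjusted p was 0.11 with the replicate block. Runx1, a transcription factor, rose by 3.49, Atf3 by 3.46 and Hpgds, a prostaglandin D synthase, by 3.43 on the log2 scale. Lead genes that fell were Atp8a2, a lipid flippase, by 1.96, Csmd3 by 1.32, Plxna4 by 0.97, Tanc2 by 0.96, Slc8a1 by 0.70 and Rapgef5 by 0.58. All 8 neuron markers fell as well, and their part in these falls was not tested.

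**Figure D5:**
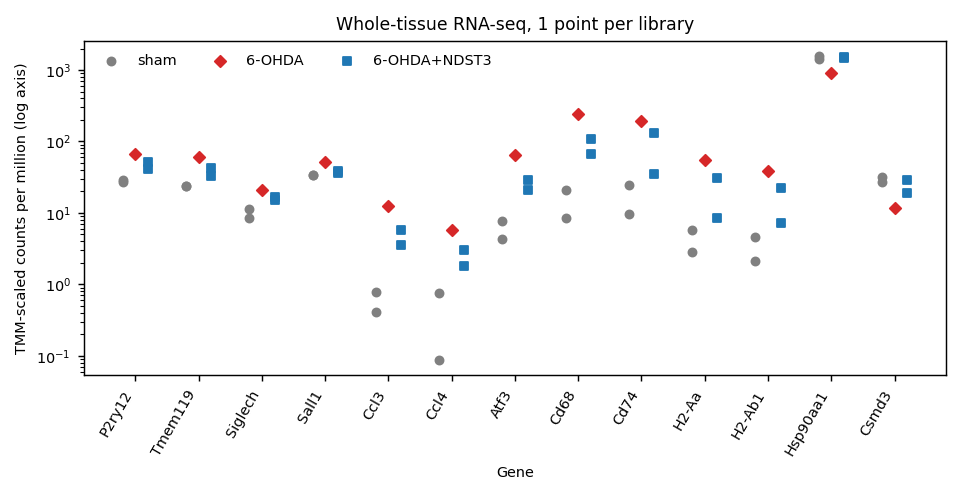
TMM-scaled CPM (vertical log axis) of 13 genes in whole tissue, with 1 point per library for 2 sham, 1 6-OHDA and 2 6-OHDA+NDST3 libraries. The 6-OHDA library is highest for P2ry12, at 66.4, and Cd74, at 192.2, and lowest for Csmd3, at 11.8.

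In 6-OHDA+NDST3 against 6-OHDA, 1 lead gene rose and 7 fell, where 9.06% and 6.59% of the tested genes did so. Atp8a2 rose by 1.68. Hpgds fell by 1.54, Mylip, a ubiquitin ligase gene, by 1.10, Mertk, a receptor for apoptotic cells, by 1.05 and Edem1 by 0.92 on the log2 scale, followed by Skil, Plxdc2 and Tbc1d16. P2ry12 had a log2 difference of -0.51 ± 0.17 (SE; edgeR adjusted p = 0.10) and Tmem119 one of -0.70 ± 0.17 (adjusted p = 0.052). In place of these 8, DESeq2 called 28 lead genes, and 5195 of all 19300 tested genes. The count was 0 with only the 2 groups compared, 0 with the replicate block, 0 without either sham library or without 6-OHDA+NDST3 replicate 1, and 23 without replicate 2.

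The antigen presentation genes had opposite signs in cluster 6 and in whole tissue. Cd74 was at 24.6 and 9.79 CPM in sham, 192.2 in 6-OHDA and 34.9 and 132.0 in 6-OHDA+NDST3. H2-Aa was at 5.73 and 2.84, 55.0, and 8.55 and 30.5. Both 6-OHDA+NDST3 libraries lay below the 6-OHDA library, whereas in cluster 6 both genes were higher with NDST3. The log2 differences in whole tissue were -1.20 ± 0.85 for Cd74 (SE; edgeR adjusted p = 0.35) and -1.49 ± 0.76 for H2-Aa (adjusted p = 0.22), so neither passed the test. Without 6-OHDA+NDST3 replicate 1 they were -0.54 and -0.85, and without replicate 2 they were -2.49 and -2.72, where H2-Aa passed (edgeR adjusted p = 0.041). For all 27 genes higher in cluster 6, both 6-OHDA+NDST3 libraries of whole tissue were below the 6-OHDA library, where 43.2% of tested genes lay so. By the test, 2 of the 27 fell, Ly6e and Rbm3, where 6.59% of all tested genes fell. Of 10 alternatives, 5 lost each of these calls. Hsp90aa1, lower in cluster 6, rose in whole tissue by 0.70 (edgeR adjusted p = 0.046), from 917.3 CPM to 1511 and 1465. Hsph1 rose by 0.76 (edgeR adjusted p = 0.034). Of 10 alternatives, 6 lost the call of Hsp90aa1, with an edgeR adjusted p of 0.071 to 0.20, and 5 that of Hsph1, with one of 0.072 to 0.16. Of the 19 genes lower in cluster 6, 17 were tested in whole tissue. Of these, 5 had both 6-OHDA+NDST3 libraries above the 6-OHDA library, where 42.4% of the tested genes did, and 10 had a log2 difference below 0, the same sign as in cluster 6. Among the 17, Hsp90aa1 and Hsph1 rose by the test, where 9.06% of all tested genes rose. Tmem176b fell, where 6.59% of all tested genes fell, a call that 6 of 10 alternatives lost. These are different libraries, and whole tissue holds many cell types.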

How the data were processed

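Mean expression per cluster in scRNA-seq (1 library per group) and whole-tissue RNA-seq (2 sham, 1 6-OHDA and 2 6-OHDA+NDST3 libraries) of mouse brain was analysed. The column names of the deposited scRNA-seq table say mean count, but by their range the values are natural log values, which the authors made with Cell Ranger (mm10) and Seurat normalization and clustering. The RNA-seq count per gene was deposited by the authors after HISAT2 alignment (mm10) and StringTie assembly. Against multiplets the methods state only an upper limit on genes per cell, and no doublet caller could be run on cluster means. The strand setting is not given in the sources used here. FPKM and TPM values, H3K27ac CUT&RUN and ATAC-seq tables were not used here.

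Of 26650 rows, 4 with a repeated symbol were dropped. Genes were detected above 0.1, and the rules were a lead of 0.5, a difference of 0.2 and a margin of 0.1. Counts were tested with edgeR 4.0.16 in R 4.3.3 (TMM factors, default filter, quasi-likelihood test over all 5 libraries, Benjamini-Hochberg adjustment, threshold 0.05), and DESeq2 1.42.0 was an alternative. The fit was tested on simulated data. Each standard error was taken as the log2 fold change over the square root of F. The study describes replicates in general as biological, but the labels do not say whether these RNA-seq libraries came from separate animals, so p-values measure the spread between these samples, which may be technical.

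Genes were named by rule: markers, the 10 largest leads, the 10 largest differences each way, up to 10 furthest beyond the other clusters, the inflammatory markers of the study, the highest and most different members of each list and the most changed lead genes in whole tissue. Members and lists were chosen with earlier results of these data known. Sex-linked, dendritic cell, heat shock and other-cell RNA lists were added after values were seen. Alternatives changed the thresholds, the centring, the scaling, the filter, the tool, the replicate block and the libraries. Tables were handled in Python 3.11.15 with pandas 2.3.3, numpy 2.4.6 and matplotlib 3.10.9. Some genes are not reported here.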

Additional observations from a re-analysis of the deposited data

Results flagged for a closer look

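For 12 genes among those with the largest differences in cluster 6, both 6-OHDA+NDST3 libraries of whole tissue lay on the other side of the 6-OHDA library. The difference between cluster 6 and whole tissue was not tested. The genes higher in cluster 6 and lower in both whole-tissue libraries were Cd74 (difference of ln means 1.35), H2-Ab1 (0.89), H2-Aa (0.87), H2-Eb1 (0.65), H2-D1 (0.53), H2-K1 (0.45), H2-Q7 (0.36), H2-Q6 (0.36), Ccl3 (0.31) and Cd86 (0.30). The genes lower in cluster 6 and higher in both were Hsp90aa1 (-0.34) and Fgf13 (-0.29).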

How the results depend on the processing

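With a rule of 0.1 in place of 0.2, 143 genes were higher and 121 lower with NDST3 in cluster 6, and with 0.4, 6 and 2. On a log2 ratio of back-transformed means, 51 were higher. The other alternatives kept both counts within 1.5 times. Lead genes numbered 192 at a lead of 0.25, 8 at 1 and 143 when cluster 3 was left out of the others. Genes beyond the other clusters numbered 17 at a margin of 0, 3 at 0.2 and 20 without cluster 3.

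In 6-OHDA against sham, 38 lead genes passed in whole tissue, 21 with the replicate block, 7 at a lead of 1 and 0 to 38 when a library was left out. The count was 0 without sham replicate 1 and 0 without sham replicate 2. In 6-OHDA+NDST3 against 6-OHDA, 8 lead genes passed, 28 with DESeq2, 0 with only the 2 groups compared, 0 with the replicate block, 24 with the crossed block, 1 at a lead of 1 and 0 to 23 when a library was left out. It was 0 without either sham library or without 6-OHDA+NDST3 replicate 1, and 23 without replicate 2. Of the genes past the rule in cluster 6, 5 passed, 25 with DESeq2, 0 with only the 2 groups compared, 0 with the replicate block, 24 with the crossed block and 0 to 15 when a library was left out. Of the genes past the rule, 27 higher and 17 lower ones were tested in whole tissue. In the same main fit, 3019 of all 19300 tested genes passed. Only 8 genes had a lead of 1, so the counts at that lead have a smaller base. The cause of the shifts between settings was not tested. At an unadjusted edgeR p under 0.05 the counts were 40 lead genes in 6-OHDA against sham and 34 in 6-OHDA+NDST3 against 6-OHDA. Of all 19300 tested genes, 9239 and 7321 were under it. DESeq2 called 5195 of all tested genes in 6-OHDA+NDST3 against 6-OHDA. Deviations of the same-numbered sham and 6-OHDA+NDST3 libraries correlated at -0.34 over 19300 genes. Same-numbered libraries thus tended to deviate in opposite directions, and what the libraries share was not tested. The crossed pairing was added after seeing the data. The scRNA-seq had no replicates and its depth is unknown.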

Other observations

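1 whole-tissue library stood apart by Ttr, the transthyretin of choroid plexus. It was at 1028 CPM in 6-OHDA+NDST3 replicate 2 and at 2.30 in replicate 1, with 30.2 and 3.04 in sham and 24.0 in 6-OHDA. In cluster 6, ribosomal protein genes had a median difference of -0.02 over 77 detected members and mitochondrial genes one of 0.08 over 11.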
